A study of Saccharomyces cerevisiae with 5 samples.

Results

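The genes described here are the 36 nuclear genes for the mitochondrial respiratory chain and ATP synthase of budding yeast, taken by name as the members of complexes II to V, both cytochrome c genes and the internal NADH dehydrogenase gene. All 36 had a probe set of their own on the array and all passed the filter on dim signal, out of 4824 genes measured. They comprise 4 genes of complex II (succinate dehydrogenase), 9 of complex III (the cytochrome bc1 complex), 2 for cytochrome c, 9 of complex IV (cytochrome c oxidase), 11 of complex V (ATP synthase) and NDI1.

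The cells were Saccharomyces cerevisiae of strain W303 with genotype PHO4-MYC::TRP1, a tagged copy of the transcription factor gene that drives the response to phosphate scarcity. Every group carried this allele, and no untagged strain was analysed here. Cultures in log phase spent 3 h in PNB medium without phosphate and were then moved to 0, 0.01, 0.1, 1 or 10 mM phosphate for 80 min. There was a single Affymetrix array per dose and hence no replicate, and neither the carbon source nor the aeration of the cultures is given in the labels. Signals of the tagged gene, PHO4, were 62.7, 44.8, 76.3, 54.3 and 78.8 in order of rising dose, and it did not pass the trend test (limma, Benjamini-Hochberg adjusted p = 0.573). PHO84, for the high-affinity phosphate transporter, had signals of 1369.9, 1157, 172, 27.8 and 27.4, so its signal went down in the order of the labelled doses.

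Electrons from NADH and succinate enter the yeast chain through NDI1 and complex II, pass by ubiquinone to complex III, by cytochrome c to complex IV, and end on oxygen. Budding yeast has no proton-pumping complex I, and NDI1 takes its place as a single-chain enzyme. The proton gradient made by complexes III and IV drives ATP synthase. Most of these genes are repressed by glucose and turned on by the Hap2/3/4/5 complex. A few subunits have a second gene: CYC1 and COX5A are the isoforms used in air, and CYC7 and COX5B are the isoforms known to be raised when oxygen or heme is scarce.

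Values below are MAS5 signals, given from 0 to 10 mM unless stated, and differences are on the log2 scale. Levels of different probe sets are not compared. A trend is the slope of a straight line through the 5 arrays in dose order. The step comparison sets 0 and 0.01 mM against 0.1, 1 and 10 mM. Both were fitted with limma over all 4824 genes, with a threshold of 0.05 on the Benjamini-Hochberg adjusted p, and both take the scatter of arrays of unlike doses as the error. The median gene was lower by 0.26 at 10 mM than at 0 mM in the deposited values, so medians of gene groups are also given relative to it. Arrays brought to 1 median moved the median gene to 0.12, and arrays brought to equal poly-A spike-in signal moved it to 3.00, with all 36 genes then higher at 10 mM. Directions of single genes therefore hold for the deposited scaling.

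Most of the 36 genes passed neither test, and those that passed were lower with more phosphate. In the trend test 3 fell (SDH4, CYC7 and COX5B), 0 rose and 33 did not pass, beside 8.13% of all genes that fell and 1.16% that rose. In the step comparison 11 were lower at the higher doses, 0 were higher and 25 did not pass, beside 22.0% lower and 11.4% higher among all genes. For 20 of the 36 both low-dose arrays lay above all 3 others, and for 3 (QCR7, QCR8 and ATP20) they lay below them. Among all genes these shares were 37.3% and 21.9%. In QCR8 the brighter of its 2 probe sets did not show this. Their median difference between 10 and 0 mM was -0.38, or -0.12 relative to the median gene (-0.37 relative to it after quantile normalization). The split of 28 members lower and 8 higher at 10 mM became 17 and 19 with arrays at 1 median and 26 and 10 after quantile normalization. Among all genes, 1025 were at least 2-fold lower and 363 higher, against 616 and 710 with arrays at 1 median and 662 and 687 after quantile normalization. At least 2-fold lower at 10 mM were 5 members, beside 21.2% of all genes, and 0 were 2-fold higher, beside 7.52%. The largest step between neighbouring doses lay between 0.01 and 0.1 mM for 16 members, beside 50.6% of all genes.

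**Figure D1:**
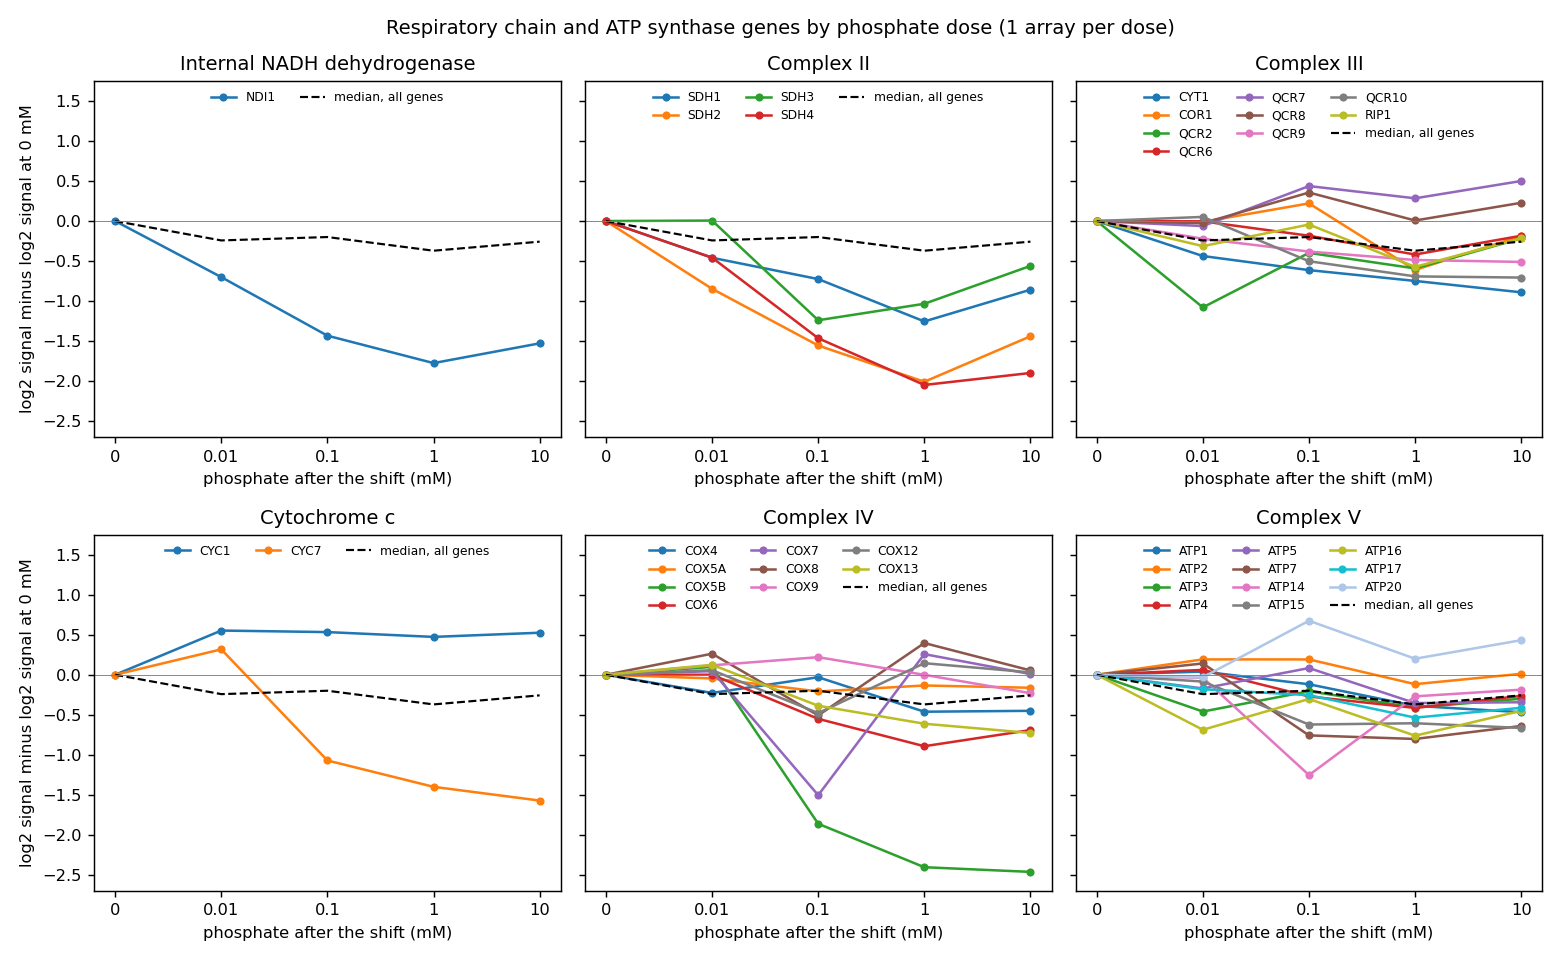
Log2 signal at each phosphate dose minus that at 0 mM for the 36 genes, 1 line per gene and 1 panel per complex, with the median of all 4824 genes dashed. NDI1 and the genes of complex II lie lowest as a set, COX5B and CYC7 separate from their partners from 0.1 mM on, and COX7 and ATP14 dip at 0.1 mM. Each point is 1 array, except that QCR8 and ATP14 are means of 2 probe sets.

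NDI1 and 3 of the 4 genes of complex II were lower at 0.1 mM and above, and SDH1 did not pass. NDI1 had signals of 97.6, 60.02, 36.1, 28.5 and 33.8, and all 3 higher doses lay below both low doses. Its step difference was -1.23 ± 0.26 (SE, 5 arrays; adjusted p = 0.0124 in limma), while its slope of -0.41 had an adjusted p = 0.0526 in the trend test. In complex II 3 of 4 genes were lower in the step comparison and 1 of 4 fell in the trend test. Among all genes these shares were 22.0% and 8.13%. SDH4, for a membrane anchor subunit, gave 420.4, 306, 152, 102 and 113, which put 10 mM 3.73-fold below 0 mM, with no overlap of low and higher doses. Its slope was -0.54 ± 0.11 per dose (adjusted p = 0.0395 in limma), and its step difference was -1.58 ± 0.26 (adjusted p = 0.0047).

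SDH2, which encodes the iron-sulfur subunit, was measured at 526, 293, 179, 131 and 194. This gene declined over each step up to 1 mM and was lower in the step comparison by -1.24 ± 0.31 (adjusted p = 0.0209 in limma). SDH3, the other membrane anchor gene, had 248, 249, 105, 121 and 168. The low-dose arrays were nearly equal, and 10 mM lay between them and 0.1 mM. The step difference of SDH3 was -0.95 ± 0.25 (adjusted p = 0.0255 in limma), a call that was lost with arrays at 1 median and after quantile normalization. SDH1, the flavoprotein gene, had 111, 80.6, 67.0, 46.4 and 61.1 and did not pass (step difference -0.72 ± 0.25, adjusted p = 0.0653 in limma). The complex II median was -1.15 at 10 mM, or -0.89 relative to the median gene, and -1.04 relative to it after quantile normalization. That was the lowest median among complexes II to V in the deposited values, a difference that was not tested.

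Of the 9 genes of complex III 0 passed the trend test, in which 8.13% of all genes fell and 1.16% rose. In the step comparison 1 was lower, beside 22.0% of all genes. The complex III median was 0.04 above that of all genes in the deposited values and 0.11 below it after quantile normalization (relative median -0.11). The gene that passed was QCR10, for a small subunit, with signals of 263, 272, 185, 163 and 161 and a step difference of -0.66 ± 0.20 (adjusted p = 0.0374 in limma), a call lost with arrays at 1 median and after quantile normalization. CYT1, for cytochrome c1, had the largest difference between the ends of the doses in this complex, at 191, 141, 125, 114 and 103, and did not pass (adjusted p = 0.108 in the step comparison, limma). QCR6, for the acidic hinge protein, had the smallest, at 299, 298, 263, 224 and 263.

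Differences between 10 and 0 mM in complex III ran from -0.89 for CYT1 to 0.50 for QCR7. QCR7, a small subunit gene on the matrix side, had 812, 778, 1100.1, 989 and 1149.5, so that both low doses lay below the others. It did not pass in the deposited values (step difference 0.44 ± 0.20, adjusted p = 0.125 in limma) and was called higher with arrays at 1 median and with no filter. The core protein gene QCR2 was lowest at 0.01 mM, at 173 against 365 at 0 mM and 277 at 0.1 mM. RIP1, the Rieske iron-sulfur protein gene, had 260.3, 209, 253, 175 and 224 on its gene probe set. A control probe set for RIP1 on the same arrays gave 171, 96.9, 101, 116 and 79.2, so these probe sets differ in whether 10 mM is among the lower doses.

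The cytochrome c genes parted. CYC7, the isoform gene raised in low oxygen, had signals of 64.0, 79.8, 30.5, 24.2 and 21.5, and both low-dose arrays lay above the rest. It fell in the trend test (slope -0.49 ± 0.12, adjusted p = 0.0450 in limma) and was lower in the step comparison (-1.51 ± 0.24, adjusted p = 0.0038). CYC1, the main isoform gene, had 452, 663, 655, 628 and 651: its 0 mM array was the lowest and the other 4 were close to each other. It did not pass either test (adjusted p = 0.489 and 0.466 in limma), and it was called higher in the step comparison without the 0.01 mM array. The ratio of CYC1 to CYC7 within an array, whose change does not depend on array scaling apart from background, was 4.28-fold higher at 10 mM than at 0 mM. Its slope was 0.58 per dose, with p = 0.0167 in a two-sided exact permutation test over the 120 orders of the 5 arrays, the smallest p these can give, and 0.0333 after Benjamini-Hochberg adjustment over the 2 isoform pairs. With the background level at the 60th percentile, which lifts CYC7 at the higher doses, the slope was 0.41 and the p was 0.0667 in the same exact test.

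In complex IV the genes for subunit 5 parted in the same doses. COX5B, the isoform gene raised in low oxygen, had 216, 232, 59.5, 40.8 and 39.2, so that 10 mM was 5.52-fold below 0 mM, the largest difference among the 36 genes in the deposited values. The 3 higher doses all lay far below both low doses. It fell in the trend test (slope -0.74 ± 0.14, adjusted p = 0.0395 in limma) and was lower in the step comparison by -2.29 ± 0.25 (adjusted p = 0.00089). COX5A, the isoform gene used in air, had 341, 329.8, 295, 310.3 and 304 and passed neither test (adjusted p = 0.752 and 0.585 in limma). The ratio of COX5A to COX5B was 4.93-fold higher at 10 mM than at 0 mM, and its slope of 0.70 per dose had p = 0.05 in the two-sided exact permutation test (0.05 adjusted over the pairs), which is not below the threshold. Comparing the 2 low doses with the 3 higher ones, the log2 ratio changed by 1.74 for CYC1 to CYC7 and by 2.15 for COX5A to COX5B, each with p = 0.1, the smallest that the 10 splits allow in the exact permutation test. The fall of COX5B was known before this pair was chosen, and both pairs were tested with earlier results of these data known. CYC7 and COX5B were also trend calls on these same arrays, so the ratio tests add no independent support.

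**Figure D2:**
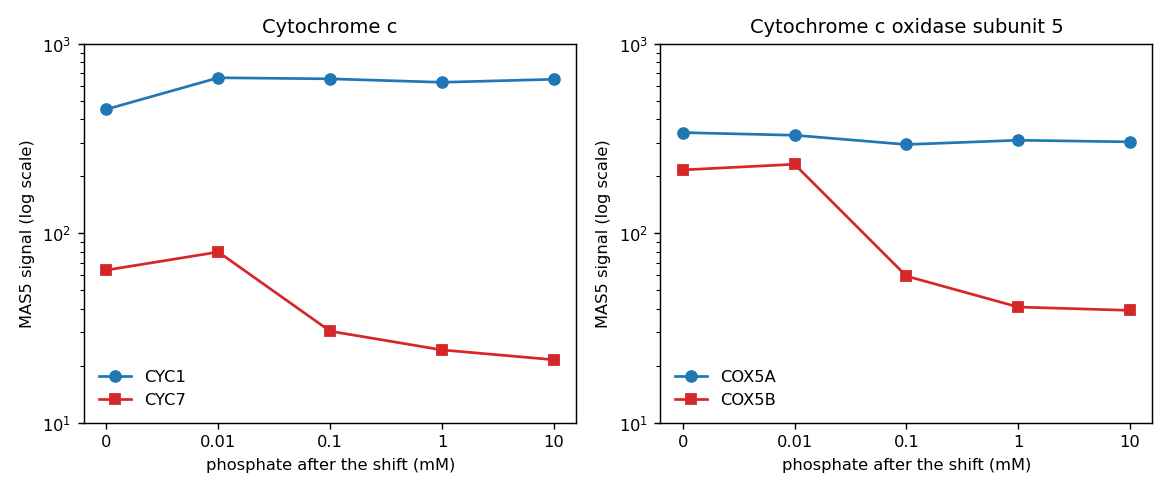
MAS5 signal on a log scale against phosphate dose for both isoform genes of cytochrome c (left) and of cytochrome c oxidase subunit 5 (right), 1 array per point. COX5B drops from 232 at 0.01 mM to 59.5 at 0.1 mM and CYC7 from 79.8 to 30.5, while COX5A stays between 295 and 341 and CYC1 between 452 and 663. Only the changes of a gene with dose can be read, not the level of 1 gene against another.

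Among the other 7 genes of complex IV, 2 were lower in the step comparison, beside 22.0% of all genes. COX6, a nuclear subunit gene, had 769, 769, 525, 414 and 476 and a step difference of -0.71 ± 0.20 (adjusted p = 0.0340 in limma). COX13, for a subunit that modulates the activity of the enzyme, had 546, 595, 417, 357 and 329.6 and a step difference of -0.64 ± 0.21 (adjusted p = 0.0499). Both genes were lower on all 3 higher-dose arrays than on the low-dose arrays, and both calls were lost with arrays at 1 median. The remaining 5 did not pass, with differences between 10 and 0 mM from -0.45 for COX4 to 0.05 for COX8. The complex IV median was 0.03 above that of all genes in the deposited values and lay below it, at -0.44, after quantile normalization.

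COX7 and ATP14 were at least 2-fold lower at 0.1 mM than the log2 mean of the doses on either side. COX7 had 584, 602, 206, 698 and 587, so that its 0.1 mM signal was 3.15-fold below the mean (on the log2 scale) of the arrays at 0.01 and 1 mM while its ends were nearly equal. ATP14, for subunit h of ATP synthase, had 234, 180.5, 106, 194 and 198 on one probe set and 312, 384, 121, 258 and 284 on the other, and both were lowest at 0.1 mM. Averaged over its probe sets, ATP14 was 2.14-fold below the log2 mean of its neighbouring doses. COX8 (498, 597, 350.0, 655 and 517) and COX12 (796, 828, 571, 879.6 and 812) were lowest at 0.1 mM too. Against the same mean they were lower by 1.79-fold and 1.49-fold, which is short of 2-fold. Among the 36 genes 2 dipped at least 2-fold, beside 3.88% of all genes, and this measure was chosen after the values were seen. It rests on 1 array, on which the 3' to 5' ratio of ACT1, a sign of RNA quality, was the lowest of the series at 1.11 (the others lay between 2.02 and 3.00). The same ratio for TBP was 2.01 on this array, above the 1.51 at 10 mM and near the 2.35 at 1 mM. The part of RNA quality in this dip was not tested.

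ATP synthase had no gene past the trend test, in which 8.13% of all genes fell and 1.16% rose. Of its 11 genes 2 were lower in the step comparison and 0 were higher, beside 22.0% and 11.4% of all genes. ATP7, for subunit d of the stalk, had 238, 263, 141, 137 and 153 and a step difference of -0.80 ± 0.19 (adjusted p = 0.0188 in limma). ATP15, for the epsilon subunit, had 536, 505, 348, 352 and 338 and a step difference of -0.59 ± 0.19 (adjusted p = 0.0485). In both genes the higher doses were close to each other and below the low doses, and both calls were lost with arrays at 1 median.

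ATP2, for the beta subunit, and the genes for the alpha, gamma and delta subunits passed neither test, unlike ATP15 of the same sector. ATP2 had 221, 253, 253, 204 and 223 and the smallest difference between the ends in this complex. ATP1 (alpha), ATP3 (gamma) and ATP16 (delta) differed by -0.47, -0.30 and -0.45 between 10 and 0 mM (step comparison, adjusted p = 0.235, 0.822 and 0.679 in limma). ATP20, for the membrane subunit g, which is tied to dimers of the enzyme, had 80.2, 78.5, 128, 92.2 and 108, with both low doses below the others, and did not pass (adjusted p = 0.154 in limma). It was called higher with arrays at 1 median and after quantile normalization. Over the complex, differences ran from -0.66 for ATP15 to 0.43 for ATP20, with a median of -0.34, or -0.09 relative to the median gene (-0.24 relative to it after quantile normalization).

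Calls depended on the arrays used and on the processing. All 3 trend calls (SDH4, CYC7 and COX5B) were lost with arrays at 1 median, after quantile normalization, with the background level at the 60th percentile, with no filter, and without the 0, 0.01 or 1 mM array, and that of CYC7 also without 10 mM. In the step comparison the calls held more often for these genes. COX5B stayed lower there with each of the 5 arrays left out and in each of the 8 other settings. SDH4 lost its call only without the 0 mM array and CYC7 only without the 0.01 mM array, among 13 alternatives. With no filter on dim signal SDH2, SDH3, COX13 and NDI1 lost theirs, and with the background level at the 20th percentile QCR10, COX6, COX13 and ATP15 did. Without the 0 mM array 4 members were lower (CYC7, COX5B, ATP7 and ATP15), and without 0.01 mM 6 were (SDH2, SDH4, COX5B, ATP7, ATP15 and NDI1). Without 0.1 mM the 4 were SDH4, CYC7, COX5B and NDI1, without 1 mM the 3 were SDH4, CYC7 and COX5B, and without 10 mM the 6 were SDH2, SDH3, SDH4, CYC7, COX5B and NDI1. Signs of RNA quality also differed between arrays. From 0 to 10 mM the 3' to 5' ratio was 2.37, 3.00, 1.11, 2.19 and 2.02 for ACT1. For TBP it was 2.63, 4.52, 2.01, 2.35 and 1.51. Both ratios were lower on the 3 higher-dose arrays than on the low-dose arrays, though at 1 mM they were close to those at 0 mM. Their part in the step calls was not tested.

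Several genes that assemble or feed the chain were lower with more phosphate. All 7 measured genes of complex II assembly and of its paralogs were lower in the step comparison, beside 22.0% of all genes. In the trend test 4 of them fell, beside 8.13% of all genes. The list median was -1.86 relative to the median gene (-1.87 after quantile normalization). SHH3 and SDH9 were above background only at 0 and 0.01 mM. They passed the filter through these arrays, so they could only be called lower. SDH8, an assembly factor gene, had 326, 201, 83.4, 70.0 and 66.2, and SDH6, another, had 353, 338.5, 98.4, 90.5 and 94.5, each with both low doses above the rest (trend, adjusted p = 0.0395 and 0.0459 in limma). The paralog genes SHH3 and SHH4 also fell, SHH3 by at least 10.4-fold between the ends, since it was below background from 0.1 mM on, and SHH4 by 9.03-fold.

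Of the 13 genes of coenzyme Q synthesis, which makes ubiquinone, 9 were lower in the step comparison, beside 22.0% of all genes. In that list 0 were higher, beside 11.4%, and 1 fell in the trend test, beside 8.13%. The relative median was -0.99 (-0.97 after quantile normalization). The gene that fell was CAT5, for the hydroxylase late in the pathway, at 69.5, 56.9, 20.4, 16.3 and 11.0, the last of them below background. Of 5 other dehydrogenases that pass electrons to ubiquinone or cytochrome c, 2 fell and 3 were lower in the step comparison. Among all genes these shares were 8.13% and 22.0%. NDE2, an external NADH dehydrogenase gene, read 135, 59.2, 3.04, 1.72 and 3.19, a drop of at least 11.8-fold from 0 to 10 mM. It too passed the filter only through the 0 and 0.01 mM arrays. For GUT2, which encodes mitochondrial glycerol-3-phosphate dehydrogenase, the drop was at least 7.68-fold. Both passed the trend test (adjusted p = 0.0395 for each in limma).

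Assembly lists of the other complexes gave mixed counts, beside 22.0% lower and 11.4% higher among all genes in the step comparison. In the trend test 8.13% of all genes fell and 1.16% rose. For cytochrome oxidase 10 of 27 genes were lower in the step comparison, 0 were higher and 0 passed the trend test, with a relative median of -0.39. The largest differences were those of SHY1 (34.7 at 0 mM and 11.6 at 10 mM) and the Cox2 chaperone gene COX20 (171 and 58.9). Of 10 complex III genes 4 were lower and 1 was higher, and CBP4, an assembly factor gene, fell (114, 72.5, 31.7, 24.1 and 28.9, trend adjusted p = 0.0415 in limma). Of 16 genes for assembly and regulation of ATP synthase 6 were lower and 0 higher, with a relative median of -0.06 (-0.25 after quantile normalization).

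Regulators of ATP hydrolysis and of ATP synthase expression led that list. STF1, whose product acts with the ATPase inhibitor, had 597, 414, 95.9, 76.7 and 71.3, with 10 mM 8.37-fold below 0 mM. STF2 had 848.6, 909, 183, 159 and 129, and NCA3, which acts on expression of mitochondrially encoded subunits, had 161, 33.9, 18.5, 11.1 and 15.4. All 3 fell in the trend test (adjusted p = 0.0395, 0.0395 and 0.0419 in limma). They were the only trend calls among the 16 genes of that list, beside 8.13% of all genes that fell. The inhibitor gene INH1 had 227, 280.3, 95.7, 103 and 95.1 and was lower in the step comparison (adjusted p = 0.0033).

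**Figure D3:**
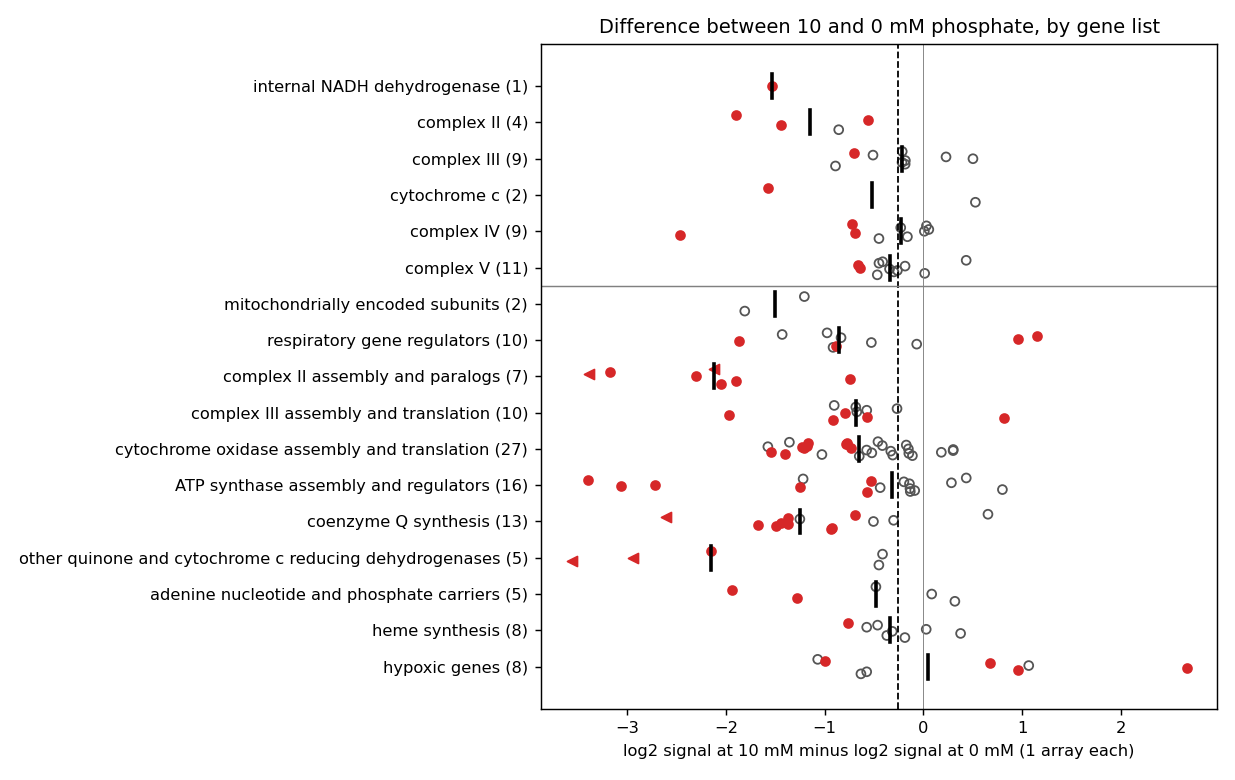
Log2 signal at 10 mM minus that at 0 mM, 1 point per gene, for the 6 sets of the 36 genes (above the grey line) and for other respiratory lists, with the number of genes in brackets. Filled points passed the step comparison in either direction, open points did not, triangles are bounds set by the background level, short black bars are list medians and the dashed line is the median of all genes at -0.26. Complexes III, IV and V centre on that line, and complex II, its assembly genes, coenzyme Q synthesis and the other dehydrogenases lie to its left.

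Of 10 known regulators of these genes 8 were lower at 10 mM than at 0 mM and 2 were higher, beside 3000 lower and 1800 higher among all 4824 genes. Their median was -0.60 relative to the median gene (-0.47 after quantile normalization). HAP4, for the activating subunit of the Hap complex, had 65.9, 42.3, 59.2, 50.5 and 45.7 and passed neither test (adjusted p = 0.592 for the trend and 0.929 for the step, limma). Its DNA-binding partner gene HAP5 had 75.5, 50.8, 16.9, 16.7 and 20.8 and was lower in the step comparison (adjusted p = 0.0024). HAP2, a second DNA-binding subunit gene, named after its values were seen, was lower too (adjusted p = 0.0254). MIG1, for a repressor in glucose, was at 41.0 at 0 mM and between 12.8 and 16.5 elsewhere. It did not pass the step comparison (adjusted p = 0.354 in limma). The corepressor gene CYC8 and the hypoxic repressor gene ROX1, also named after their values were seen, were higher in the step comparison (adjusted p = 0.0073 and 0.0416 in limma). ROX1 had 11.8, 6.86, 25.5, 15.6 and 23.0, so it was near background at 0 mM and below it at 0.01 mM. It could therefore hardly be called lower. Of the 10 regulators 0 passed the trend test, 2 were lower and 2 higher in the step comparison. Among all genes 22.0% were lower and 11.4% higher in that comparison, and 8.13% fell and 1.16% rose in the trend test.

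Other paralog pairs were set beside the isoforms. Beside CYC1 and COX5A, 6 further pairs were formed from these lists after their values were seen: SDH1 with SDH9, SDH3 with SHH3, SDH4 with SHH4, the external NADH dehydrogenase genes NDE1 with NDE2, the ADP/ATP carrier genes PET9 with AAC1, and the phosphate carrier genes MIR1 with PIC2. In all 8 pairs the second gene lay further below its 0 mM value at 10 mM than the first, and each of these 8 was at least 2-fold lower, against 1 of the 8 first genes (SDH4). PET9 had 286, 338, 426, 373 and 356, while AAC1 had 182, 128, 71.0, 84.0 and 74.7. MIR1 had 519.8, 458, 468, 435 and 551, and PIC2 had 270.0, 365, 98.0, 65.2 and 70.5. In the step comparison all 8 second genes and 2 of the first genes were lower, beside 22.0% of all genes. As the pairs were chosen for this pattern, it is a description, and these lists hold paralogs that were not paired. SCO1 and SCO2 of the cytochrome oxidase assembly list, for example, had nearly equal differences between 10 and 0 mM (-1.21 and -1.23). SDH9, SHH3 and NDE2 passed the filter only through the 0 and 0.01 mM arrays, so for them no other direction could be called. Paralog transcripts are alike in sequence, so how signal divides within a pair is uncertain.

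**Figure D4:**
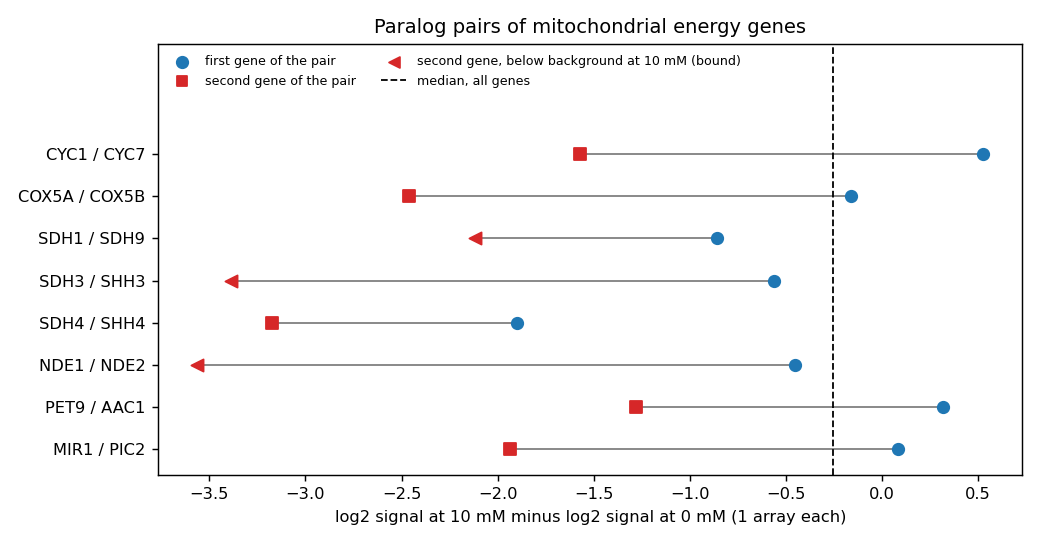
Log2 signal at 10 mM minus that at 0 mM for both genes of 8 paralog pairs, joined by a line, with 1 array per dose and the median of all genes dashed. Circles are the first gene named, squares the second, and triangles mark the 3 second genes that were below background at 10 mM, whose difference is a bound. In each pair the second gene lies to the left of the first.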

How the data were processed

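RNA of 5 yeast cultures, 1 per phosphate dose, was measured on 1 Affymetrix array each, starting from 6 ug of cDNA according to the labels. The deposited values are linear intensity signals, 1 per probe set, made by the authors with MAS5 per the submitters' processing notes. The sources used here do not name its scaling target, version or filters. No value column was left out, and 0 pairs of arrays were identical. The number of arrays limits the precision.

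Of 9335 probe sets, 6504 had 1 gene in the platform annotation, and all of these matched RefSeq R64 by gene identifier (328 had several genes, 2503 were not listed). Values under the 40th percentile of all values (11.4) were set to it, log2 was taken, probe sets at or above it on at least 2 arrays were kept (5083) and those of a gene were averaged, giving 4824 genes. Where a gene was under this level at 10 mM, its fold is a bound. The SD between probe sets of a gene, over 120 genes that had 2, was 0.61 for the difference of 10 and 0 mM.

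Models were fitted with limma (version 3.58.1, R 4.3.3), with eBayes and Benjamini-Hochberg adjustment over all genes, on dose order (7.64 degrees of freedom after moderation) and for the step comparison (7.38). Ratios of isoforms were tested by exact permutation over arrays. On simulated data for 4824 genes, the trend test recovered 2 of 50 linear changes of 1 (log2) and 39 of 50 of 2, and 2 and 6 of 50 step-shaped ones of these sizes. The step comparison recovered 11 of 50 step-shaped changes of 1 and 49 of 50 of 2, so most changes of the size of many member differences would be missed.

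The members, lists and tests were chosen with earlier results of these data known. Values on every array are given for members past either test, the isoforms, NDI1 and the largest and smallest difference of each complex. Of other lists, genes past the trend test or else the 2 largest differences are named. Other settings were array scaling, background level, a pseudocount, filters, the brightest probe set, log10 dose, a variance trend and each array left out. Chosen after the values were seen were the dip at 0.1 mM, the paralog pairs and the naming of QCR2, QCR7, RIP1, ATP1, ATP3, ATP14, ATP16, ATP20, COX4, COX8, COX12, INH1 and the paralogs. CBP1, SCO1 and SCO2 were also named after their values were seen. Promoter motifs were not analysed here, and genome positions are left out because the sources name no build.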

Additional observations from a re-analysis of the deposited data

How the results depend on the processing

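With 1 array per dose, every test takes scatter between doses as error, and calls change with the settings. No paired analysis was possible because each dose has 1 array. The trend count of 3 lower members was 0 with arrays at 1 median, after quantile normalization, with the background level at the 60th percentile and with no filter, and ran from 0 to 4 with 1 array left out (0 without 0, 0.01 or 1 mM, 4 without 0.1 or 10 mM); that of higher members stayed at 0. The step count of 11 lower members was 5 with arrays at 1 median, 7 with the background level at the 20th percentile and 3 to 6 with 1 array left out. Higher members in the step comparison were 2 with arrays at 1 median, 1 after quantile normalization, 1 with the 20th percentile, 1 with no filter and 0 to 1 with 1 array left out. The cause of these changes was not tested, apart from scaling, which shifts all genes of an array.

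Median differences between 10 and 0 mM changed with the scaling. Those of complex II and cytochrome c kept their negative sign with arrays at 1 median, where the other medians turned. All of the medians turned with equal poly-A spike-in signal. With arrays at 1 median they were 0.036 for all members, -0.74 for complex II, 0.20 for complex III, -0.11 for cytochrome c, 0.18 for complex IV and 0.070 for complex V. With equal poly-A spike-in signal, which was 9.55-fold higher at 0 than at 10 mM, they were 2.88, 2.11, 3.04, 2.73, 3.02 and 2.91 in that order. The geometric mean of the spike-in signals was 243, 72.3, 39.6, 29.2 and 25.5 from 0 to 10 mM. That of the hybridisation controls was 1.08-fold higher at 0 than at 10 mM. Whether spike-in amounts were equal across arrays was not tested. The ratio slope of CYC1 to CYC7 was 0.41 with the background level at the 60th percentile (exact permutation p = 0.0667). With 1 array left out it ran from 0.53 to 0.70, and that of COX5A to COX5B from 0.61 to 0.86, where 4 arrays cannot reach the threshold.

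Slopes near 0 of members that passed no test turned sign. With arrays at 1 median they became 0.0044 (COR1), 0.023 (QCR6), 0.033 (RIP1), 0.060 (COX5A), 0.044 (COX9), 0.073 (ATP2), 0.047 (ATP3), 0.0013 (ATP4), 0.015 (ATP5), 0.041 (ATP14) and 0.0041 (ATP16). After quantile normalization they became 0.0091 (COR1), 0.013 (RIP1), 0.011 (COX5A), -0.036 (COX7), -0.097 (COX12), 0.054 (ATP2) and 0.0046 (ATP14). With 1 array left out they ran from -0.11 to 0.24 (QCR2), -0.014 to 0.14 (CYC1), -0.078 to 0.17 (COX7), -0.023 to 0.059 (COX8), -0.13 to 0.0099 (COX9), -0.011 to 0.054 (COX12), -0.098 to 0.028 (ATP3), -0.20 to 0.054 (ATP14) and -0.19 to 0.025 (ATP16).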

Other observations

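A further list held genes tied to the response to low oxygen, among them ROX1, which is itself a repressor made in air. Of its 8 measured genes TIR1, for a cell wall mannoprotein, rose in the trend test, with signals of 32.2, 42.1, 58.4, 91.8 and 204 (adjusted p = 0.0395 in limma), and 0 fell. In the step comparison 3 were higher (TIR1, TIR4 and the repressor gene ROX1) and 1 was lower (HMG2, for a sterol synthesis enzyme). Among all genes 11.4% were higher and 22.0% lower in the step comparison, and 1.16% rose and 8.13% fell in the trend test. The list median was 0.31 above that of all genes. Heme synthesis genes, whose product is held by complexes II, III and IV and cytochrome c, had 0 of 8 past the trend test and 1 lower in the step comparison, HEM15, for ferrochelatase (75.3, 60.8, 43.1, 34.3 and 44.2). HEM13, which belongs to both lists, had 24.6, 30.4, 36.7, 21.0 and 16.5 and passed neither test.

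Of 8 mitochondrially encoded genes 2 passed the filter on dim signal, COX1 and OLI1. Each has several probe sets, and only those past the filter entered its values. COX1 had 74.1, 25.9, 28.0, 42.6 and 21.2, and OLI1 had 48.0, 26.1, 30.7, 43.5 and 20.8. Neither passed a test, and in both the arrays at 0 and 1 mM were the highest. QCR8 had a bright probe set at 539, 519.6, 678, 394 and 644 and a dim one at 5.18, 5.82, 14.9, 15.8 and 13.1, and the mean of both was used. The dim one was below background at 0 and 0.01 mM, and only with it did both low doses lie below the others.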
